A study of Mus musculus with 8 samples.

Results

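The genes described here are 10 genes of the Yap and Tead mechanosensing system of the mouse, taken by symbol from a table of read counts for 50686 Ensembl gene identifiers. They are the coactivator genes Yap1 and Wwtr1 (the gene of the Taz protein), the DNA-binding partners Tead1 and Tead2, the kinases Lats1 and Lats2, the scaffold gene Amotl2, and the transcriptional targets Ctgf, Cyr61 and Ankrd1. Ctgf and Cyr61 are also written Ccn2 and Ccn1. The symbols follow the genes' known roles, and no threshold on a measured value defines the set, although earlier results of these data were known when it was drawn up. All 10 were found in the table, each under a single identifier.

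Yap and Taz shuttle between the cytoplasm and the nucleus. On stiff or wide adhesive surfaces, when actin fibres are under tension, they enter the nucleus and bind Tead proteins, which carry them to the promoters and enhancers of target genes. The Hippo kinases, which end in Lats1 and Lats2, phosphorylate both coactivators and hold them in the cytoplasm, and angiomotin proteins such as Amotl2 bind them there and also activate the Lats kinases. In the early mouse embryo the same system separates outer cells, which become trophectoderm, from inner cells. Most of this control acts on proteins, so transcript levels show the amounts of the messenger RNAs and the state of the target genes, not where Yap or Taz is located.

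Mouse embryonic stem cells (mESCs) that were wild type (R9wt) or Rad9-/- (R9del) were cultured aboard a satellite or on the ground, and were fixed in RNAlater after 1 day (D1) or 5 days (D5). Rad9 encodes a DNA damage checkpoint protein, and the study asked how its loss and spaceflight alter gene expression. Each of the 8 combinations was sequenced as 1 library of messenger RNA extracted with TRIzol, without replicates of any condition. Cultures on the ground grew in the same kind of sealed payload as the space cultures, with equal seeding per device.

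What space means in these libraries is launch, return, microgravity and radiation together, and these cannot be told apart. Devices for D1 and for D5 formed separate groups, each with its own temperature control, and were seeded with different cell numbers. In space the D1 cells were also fixed earlier and so stored cold in RNAlater for longer before the return. Culture duration cannot be told apart from these differences. At D5 the R9del cells were also seeded with more cells than the R9wt cells, so at that time point genotype and seeding cannot be told apart. The submitters' read counts summed to between 58238440 (Space_R9del_D5) and 96416907 (Ground_R9wt_D5) per library. Levels are given in CPM, which are counts scaled to a common library total, with the TMM factors of edgeR, which correct the totals for differences in composition and lay between 0.9515 and 1.036. Where no read was counted, a true level of up to 3 counts is allowed, or 0.0327 to 0.0514 CPM depending on the library, by counting error alone.

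Each of the 3 conditions was compared over 4 libraries against 4, for the 20473 genes with enough counts, with edgeR's quasi-likelihood test and Benjamini-Hochberg adjustment over all of them. A gene was called at an adjusted p under 0.05 and a fold change of at least 2, and a looser rule, an unadjusted p under 0.05 and the same fold change (the unadjusted rule), is given beside it. Fold changes are on the log2 scale with a standard error (SE). A pair is a set of 2 libraries that differ in the compared condition alone, so each comparison has 4 pairs. In one alternative fit the pairs enter as a block, so that each library is compared with its partner. Because the 4 libraries of a group differ in the other conditions, the p-values measure a difference against the spread among unlike libraries and not against replicate cultures. All 10 genes passed the filter on low counts.

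The labels were checked first. The 12 pluripotency markers examined summed to between 5583 and 8797 CPM in every library, with Pou5f1 between 963 and 1767 CPM and Nanog between 211 and 663 CPM. Zfp42 ranged from 85.6 CPM in Space_R9wt_D1 to 857 CPM in Space_R9del_D1. Of these 12 genes edgeR called 1 higher in space, Esrrb (log2 fold change 1.20, SE 0.20, adjusted p = 0.00635), and 0 lower, where the unadjusted rule took Fgf4 and DESeq2's Wald test called 1. Sox2 was lower there with an adjusted p of 0.0317 by edgeR, short of a fold change of 2 (-0.94). The space and ground groups did not overlap for 2 higher, Esrrb and Lin28a (0.81), and 2 lower, Sox2 and Utf1 (-0.82), against 14.6% of all genes. In R9del edgeR called 0, where the unadjusted rule took Dppa5a as lower, and 0 at D5, where that rule took 0, and DESeq2's Wald test called 0 in both. With the matched pairs as a block edgeR called Fgf4 as lower in space. Without Ground_R9wt_D5 it called 2 lower in space, and without Space_R9del_D1 it called 1. With an offset for gene length and GC, chosen after seeing the data, the log2 fold change of Esrrb was 0.97, short of a call. The medians of the list were -0.36, 0.11 and -0.11 in the 3 comparisons, the first was 0.22 with the offset, and over all alternatives the others ranged from -0.06 to 0.30 and from -0.26 to 0.05. The 14 fibroblast markers, which would reveal feeder cells, summed to between 35.0 and 71.7 CPM. Thy1 lay between 11.8 and 37.8 CPM, Pdgfrb between 3.54 and 27.2 CPM and Col1a1 between 3.77 and 10.4 CPM, Col1a2, Loxl1 and Fbn1 reached 8.92, 7.92 and 6.20 CPM, and Dcn, Lum, Postn, Col3a1, Prrx1 and S100a4 stayed at or under 0.305 CPM in every library. Both edgeR and DESeq2's Wald test called 0 of the 9 tested, edgeR with the matched pairs as a block called Pdgfrb as higher in space and lower in R9del, and the unadjusted rule took Pdgfrb as higher in space and lower in R9del and Col1a2 as higher at D5. The medians of these markers were 0.27, -0.52 and 0.32, and the first was -0.09, -0.11 and -0.07 without Ground_R9wt_D1, Space_R9del_D5 and Ground_R9del_D5. Rad9a, the gene deleted in the R9del cells, lay between 70.6 and 91.5 CPM in the R9wt libraries and between 20.9 and 28.1 CPM in the R9del libraries, and the groups did not overlap.

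The 10 genes lie on 6 chromosomes of the mm9 genome. Wwtr1 and Cyr61 are on chromosome 3, Tead1 and Tead2 on chromosome 7, Yap1 and Amotl2 on chromosome 9, Lats1 and Ctgf on chromosome 10, Lats2 on chromosome 14 and Ankrd1 on chromosome 19. Per kilobase of annotated exon, the scale on which different genes can be compared, the mean level over 8 libraries was highest for Cyr61 at 52.9 CPM per kb ± 52.2 (SD). Tead2 at 24.7 ± 9.67 and Amotl2 at 23.7 ± 12.8 CPM per kb came next, and none of these 3 differed from the others beyond its spread. The mean of Cyr61 was raised by Space_R9wt_D5, at 170.0 CPM per kb, and Tead2 was above Cyr61 in Ground_R9wt_D1 (28.1 against 12 CPM per kb), Ground_R9del_D5 (20.8 against 19.4) and Space_R9wt_D1 (38.4 against 26.9). Ctgf at 8.43 ± 4.36, Wwtr1 at 6.61 ± 2.97, Yap1 at 5.24 ± 1.12 and Tead1 at 4.44 ± 3.39 CPM per kb formed a middle range in which neighbours lay within their SD of each other. Ankrd1 at 1.65 ± 2.89, Lats2 at 1.58 ± 1.07 and Lats1 at 1.21 ± 0.453 CPM per kb were the lowest of the 10. The ratio of the highest to the lowest library ran from 1.92 for Yap1 to 72.0 for Ankrd1.

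**Figure D1:**
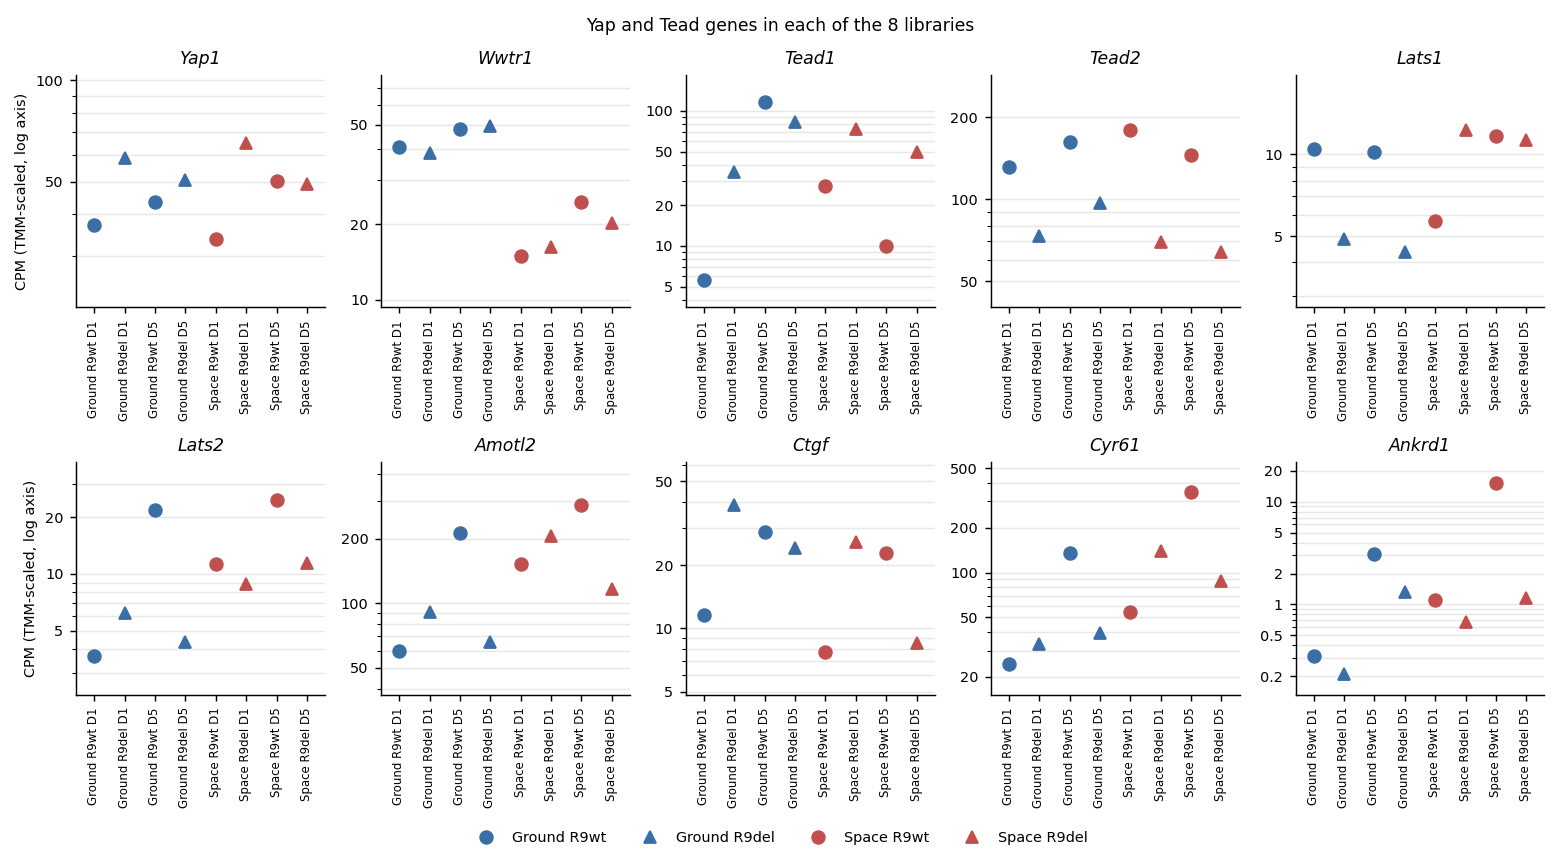
Level of each of the 10 genes in each of the 8 libraries, in TMM-scaled CPM on a log axis that differs between panels; blue marks ground, red marks space, circles mark R9wt and triangles mark R9del. Wwtr1 lies between 14.9 and 24.5 CPM in the space libraries and between 38.5 and 49.6 CPM on the ground, and Ankrd1 reaches 15.3 CPM in Space_R9wt_D5.

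Among the coactivators, Yap1 (ENSMUSG00000053110, chromosome 9, 7931999 to 8004596, minus strand) was the steadiest gene of the 10. On the ground its level was 37.3 CPM in Ground_R9wt_D1, 58.7 CPM in Ground_R9del_D1, 43.4 CPM in Ground_R9wt_D5 and 50.7 CPM in Ground_R9del_D5. In space it was 33.9 CPM in Space_R9wt_D1, 65.0 CPM in Space_R9del_D1, 50.2 CPM in Space_R9wt_D5 and 49.1 CPM in Space_R9del_D5. Both D1 libraries of R9del cells were the high ones and both D1 libraries of R9wt cells the low ones, while the D5 libraries lay close together, and the groups overlapped in all 3 comparisons. For space against ground the log2 fold change of Yap1 was 0.06 (SE 0.25, adjusted p = 0.936 by edgeR), with 2 of 4 pairs higher. The R9del libraries differed from R9wt by 0.44 on the log2 scale (SE 0.22, adjusted p = 0.294 by edgeR), higher in 3 of 4 pairs.

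The second coactivator gene, Wwtr1 (ENSMUSG00000027803, chromosome 3, 57259571 to 57379832, minus strand), encodes Taz, the paralogue of Yap. Its ground levels were 40.6 CPM in Ground_R9wt_D1, 38.5 CPM in Ground_R9del_D1, 47.9 CPM in Ground_R9wt_D5 and 49.6 CPM in Ground_R9del_D5. Its space levels were 14.9 CPM in Space_R9wt_D1, 16.2 CPM in Space_R9del_D1, 24.5 CPM in Space_R9wt_D5 and 20.2 CPM in Space_R9del_D5. Every space library lay below every ground library, and within each location both D5 libraries lay above both D1 libraries. The group means were 44.2 CPM ± 5.39 (SD, n = 4) on the ground and 19.0 CPM ± 4.33 (SD, n = 4) in space. Wwtr1 fell in space with a log2 fold change of -1.22 (SE 0.23, adjusted p = 0.012 by edgeR), and it was lower in 4 of 4 pairs. Another value also moved with location, since the mitochondrial share of the counts was lower in space in all 4 pairs (1.37% against 2.47% in R9wt at D1, 1.82% against 3.39% in R9del at D1, 1.12% against 1.20% in R9wt at D5 and 1.46% against 2.46% in R9del at D5), and its part in the fall of Wwtr1 was not tested. The call held under each of the 15 alternatives tried, including each library left out in turn, with adjusted p between 2.45e-05 and 0.048. In bulk RNA, fewer cells that express a gene and less RNA per cell cannot be told apart.

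Transcript length and base composition were set beside the fall of Wwtr1. The fold changes of protein-coding genes in space moved with transcript length and GC content. Genes of the exon length class of Wwtr1 (4779 nt, class 4000 to 8000 nt) had a median of 0.21 and genes of its GC class (44.2%, class 40 to 50%) a median of 0.15. With the offset for length and GC its log2 fold change was -1.24. The part of either property in the level of Wwtr1 was not tested further. The R9del and R9wt groups overlapped for Wwtr1 (log2 fold change -0.04, SE 0.45, adjusted p = 0.973 by edgeR).

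Tead proteins have a DNA-binding domain and no activation domain of their own, and depend on coactivators such as Yap and Taz. Tead1 (ENSMUSG00000055320, chromosome 7, 119822832 to 120050319, plus strand) measured 5.62 CPM in Ground_R9wt_D1, 35.5 CPM in Ground_R9del_D1, 116 CPM in Ground_R9wt_D5 and 82.1 CPM in Ground_R9del_D5. In space it measured 28.0 CPM in Space_R9wt_D1, 73.0 CPM in Space_R9del_D1, 10 CPM in Space_R9wt_D5 and 49.3 CPM in Space_R9del_D5. The R9wt libraries held both its extremes, 20.6-fold apart on the ground alone, whereas the R9del libraries stayed within 35.5 to 82.1 CPM. No group stood apart, and its log2 fold change was -0.58 (SE 0.79, adjusted p = 0.77 by edgeR) in space and 0.59 (SE 0.79, adjusted p = 0.725) in R9del. Without Ground_R9wt_D5 the R9del value was 2.04 (adjusted p = 0.129 by edgeR, range over all alternatives 0.0929 to 0.899). A second annotation of Tead1, which shares 34.2% of its exon length, was not in the count table, so how reads in the shared exons were assigned is not known.

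Tead2 (ENSMUSG00000030796, chromosome 7, 52471123 to 52489005, plus strand) is the family member known from early embryos and stem cells. Its level in R9wt libraries was 179 CPM in Space_R9wt_D1, 131 CPM in Ground_R9wt_D1, 145 CPM in Space_R9wt_D5 and 162 CPM in Ground_R9wt_D5. In R9del libraries it was 69.6 CPM in Space_R9del_D1, 73.2 CPM in Ground_R9del_D1, 64.2 CPM in Space_R9del_D5 and 96.9 CPM in Ground_R9del_D5. All 4 R9del libraries were below the lowest R9wt library, and the means were 155 CPM ± 20.8 (SD, n = 4) in R9wt and 76.0 CPM ± 14.4 (SD, n = 4) in R9del. Tead2 fell in R9del with a log2 fold change of -1.02 (SE 0.21, adjusted p = 0.0451 by edgeR), lower in 4 of 4 pairs. This call sat close to both thresholds. The adjusted p of edgeR rose above 0.05, to at most 0.153, without Space_R9wt_D1, Space_R9del_D1, Ground_R9del_D1, Space_R9wt_D5, Ground_R9wt_D5, Space_R9del_D5 or Ground_R9del_D5, and stayed under it at 0.047 without Ground_R9wt_D1, while the log2 fold change lay between -1.18 and -0.95. By DESeq2's Wald test the adjusted p was 0.00114, against a range of 0.00114 to 0.153 over all alternatives. The space and ground libraries overlapped (log2 fold change -0.02, SE 0.38, adjusted p = 0.99 by edgeR).

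The kinases Lats1 and Lats2, which phosphorylate Yap and Taz, were the genes with the lowest levels per kb beside Ankrd1. Lats1 (ENSMUSG00000040021, chromosome 10, 7401007 to 7436256, plus strand) measured 10.5 CPM in Ground_R9wt_D1, 4.86 CPM in Ground_R9del_D1, 10.2 CPM in Ground_R9wt_D5 and 4.37 CPM in Ground_R9del_D5. In space it measured 5.67 CPM in Space_R9wt_D1, 12.3 CPM in Space_R9del_D1, 11.7 CPM in Space_R9wt_D5 and 11.3 CPM in Space_R9del_D5. On the ground both R9del libraries lay below both R9wt libraries, while in space 3 libraries were alike and Space_R9wt_D1 was low. The difference between the genotype effect in space and on the ground, tested as an interaction of location and genotype with duration as a covariate, was 1.64 on the log2 scale (SE 0.60, adjusted p = 1 by edgeR). In the group comparisons the log2 fold change of Lats1 was 0.45 (SE 0.40, adjusted p = 0.622 by edgeR) in space and -0.21 (SE 0.42, adjusted p = 0.822) in R9del.

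Lats2 (ENSMUSG00000021959, chromosome 14, 58260914 to 58377225, minus strand), itself a transcriptional target of Yap, measured 3.67 CPM in Ground_R9wt_D1, 6.17 CPM in Ground_R9del_D1, 21.9 CPM in Ground_R9wt_D5 and 4.33 CPM in Ground_R9del_D5. In space it measured 11.3 CPM in Space_R9wt_D1, 8.88 CPM in Space_R9del_D1, 24.6 CPM in Space_R9wt_D5 and 11.4 CPM in Space_R9del_D5. The D5 libraries of R9wt cells were the highest at both locations, and the space library was higher in 4 of 4 pairs although the groups overlapped. Its log2 fold change was 0.64 (SE 0.60, adjusted p = 0.641 by edgeR) in space and -1.0 (SE 0.55, adjusted p = 0.344) in R9del. Without Ground_R9wt_D5 the value in space was 1.56 (adjusted p = 0.0733 by edgeR, the lowest over all alternatives, which reached 0.914).

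The scaffold gene Amotl2 (ENSMUSG00000032531, chromosome 9, 102619002 to 102635748, plus strand) encodes an angiomotin that holds Yap at cell junctions, and its transcription is in turn raised by Yap. On the ground it measured 60 CPM in Ground_R9wt_D1, 91.5 CPM in Ground_R9del_D1, 212 CPM in Ground_R9wt_D5 and 65.9 CPM in Ground_R9del_D5. Its levels in space were 153 CPM in Space_R9wt_D1, 205 CPM in Space_R9del_D1, 286 CPM in Space_R9wt_D5 and 117 CPM in Space_R9del_D5. Each space library exceeded its ground partner, but Ground_R9wt_D5 lay above 3 of the space libraries. The log2 fold change in space was 0.83 (SE 0.43, adjusted p = 0.349 by edgeR). With the matched pairs as a block it was 0.94 (adjusted p = 0.0287 by edgeR, range over all alternatives 0.0287 to 0.629), short of a fold change of 2, and without Ground_R9wt_D5 it was 1.38 with an adjusted p of 0.0423 by edgeR.

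The matricellular genes Ctgf and Cyr61 and the nuclear and sarcomeric protein gene Ankrd1 are widely used readouts of Yap and Taz activity. Ctgf (ENSMUSG00000019997, chromosome 10, 24315248 to 24318489, plus strand) measured 11.6 CPM in Ground_R9wt_D1, 38.7 CPM in Ground_R9del_D1, 28.6 CPM in Ground_R9wt_D5 and 24 CPM in Ground_R9del_D5. In space it measured 7.77 CPM in Space_R9wt_D1, 25.8 CPM in Space_R9del_D1, 22.8 CPM in Space_R9wt_D5 and 8.53 CPM in Space_R9del_D5. Each space library lay below its ground partner, yet the groups overlapped, since Ground_R9wt_D1 was low and 2 space libraries were near the ground mean of 25.8 CPM ± 11.2 (SD, n = 4). The log2 fold change of Ctgf in space was -0.67 (SE 0.48, adjusted p = 0.525 by edgeR), and in R9del it was 0.45 (SE 0.51, adjusted p = 0.664). Of its exon length, 22.9% overlaps a long noncoding RNA on the opposite strand, Gm15270, which measured at most 0.490 CPM.

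Cyr61 (ENSMUSG00000028195, chromosome 3, 145309935 to 145312949, minus strand) measured 24.4 CPM in Ground_R9wt_D1, 33.1 CPM in Ground_R9del_D1, 135 CPM in Ground_R9wt_D5 and 39.4 CPM in Ground_R9del_D5. In space it measured 54.6 CPM in Space_R9wt_D1, 140.2 CPM in Space_R9del_D1, 345 CPM in Space_R9wt_D5 and 87.5 CPM in Space_R9del_D5. The space library was the higher one in 4 of 4 pairs, by ratios of 2.24, 4.23, 2.56 and 2.22, and Ground_R9wt_D5 was the single ground library that reached into the space range. The means were 57.9 CPM ± 51.5 (SD, n = 4) on the ground and 157 CPM ± 130.2 (SD, n = 4) in space. The log2 fold change in space was 1.44 (SE 0.67, adjusted p = 0.282 by edgeR), which did not pass. Once the matched pairs entered as a block, the same 1.44 came with an adjusted p of 0.00602 by edgeR, the lowest of all alternatives, among which the adjusted p reached 0.65. The size rested in part on the D5 libraries of R9wt cells, since it was 0.70 without Space_R9wt_D5 and 2.26 without Ground_R9wt_D5. Cyr61 and Ctgf, paralogues with like functions, thus stood on opposite sides of their ground partners in every pair. Neither difference passed the test of 4 libraries against 4, and Cyr61 alone passed with the pairs as a block.

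Ankrd1 (ENSMUSG00000024803, chromosome 19, 36186455 to 36194334, minus strand) was measured with few reads, from 14 to 931 counts per library. At D1 it measured 0.319 CPM in Ground_R9wt_D1, 0.213 CPM in Ground_R9del_D1, 1.11 CPM in Space_R9wt_D1 and 0.672 CPM in Space_R9del_D1. At D5 it measured 3.12 CPM in Ground_R9wt_D5, 1.31 CPM in Ground_R9del_D5, 15.3 CPM in Space_R9wt_D5 and 1.16 CPM in Space_R9del_D5. Every D5 library lay above every D1 library, but Space_R9wt_D5, with 931 counts, was 4.91-fold above the next library. Its log2 fold change at D5 was 3.17 (SE 0.94, adjusted p = 0.975 by edgeR), higher in 4 of 4 pairs, and without Space_R9wt_D5 it was 1.69. DESeq2's Wald test gave an adjusted p of 0.0435 for the same 3.17, against a range of 0.0435 to 1 over all alternatives. In R9del the log2 fold change was -2.56 (SE 1.06, adjusted p = 0.215 by edgeR), lower in 4 of 4 pairs, and -0.85 without Space_R9wt_D5. In space it was 1.88 (SE 1.16, adjusted p = 0.444 by edgeR), higher in 3 of 4 pairs, and -0.34 without that library, so the sign depended on it.

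Lats2, Amotl2, Cyr61 and Ankrd1 all had their highest level in Space_R9wt_D5 and their second highest, except for Cyr61, in Ground_R9wt_D5. The promoters of the members were searched for GGAATG, the core letters of the element that Tead proteins bind, on both strands (CATTCC on the reverse strand). The RefSeq promoter table, on build GRCm38.p6, gives 250 bases before and 50 bases after each start and holds 8 of the 10 genes, without Ctgf and Tead1. The letters occurred in a promoter of 6 of the 8, against 4481 of all 27025 genes (16.6%) and 4817 of all 32851 promoters (14.7%). They were found in Yap1, Wwtr1, Lats2, Amotl2, Cyr61 and Ankrd1 and not in the windows of Tead2 and Lats1. In Lats2 they began at base 5 after the start. The set holds known Yap targets, among them Cyr61, Ankrd1, Amotl2 and Lats2, so its contrast with all genes is no evidence from these data. Nor were the letters particular to the genes highest in Space_R9wt_D5, since Yap1 and Wwtr1 held them too. The promoters of Amotl2, Cyr61 and Ankrd1 are printed, as the genes highest in Space_R9wt_D5 whose match lies before the start, with the match in capitals. Amotl2 (chr9:102717554-102717853, plus strand) holds it on the reverse strand 65 bases before the start, Cyr61 (chr3:145649936-145650235, minus strand) on the reverse strand 103 bases before it, and Ankrd1 (chr19:36119795-36120094, minus strand) at 210 and 123 bases before it.
Amotl2: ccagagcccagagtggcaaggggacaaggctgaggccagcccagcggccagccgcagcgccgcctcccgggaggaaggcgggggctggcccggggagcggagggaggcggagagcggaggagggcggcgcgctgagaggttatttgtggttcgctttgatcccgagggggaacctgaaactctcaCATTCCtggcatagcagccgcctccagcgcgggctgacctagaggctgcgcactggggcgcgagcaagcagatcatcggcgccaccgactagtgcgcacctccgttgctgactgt
Cyr61: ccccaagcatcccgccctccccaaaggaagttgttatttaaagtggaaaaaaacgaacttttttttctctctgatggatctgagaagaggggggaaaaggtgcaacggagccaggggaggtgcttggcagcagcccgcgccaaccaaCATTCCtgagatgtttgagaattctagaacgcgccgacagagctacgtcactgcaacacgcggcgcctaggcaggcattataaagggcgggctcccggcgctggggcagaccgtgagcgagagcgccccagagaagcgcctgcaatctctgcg
Ankrd1: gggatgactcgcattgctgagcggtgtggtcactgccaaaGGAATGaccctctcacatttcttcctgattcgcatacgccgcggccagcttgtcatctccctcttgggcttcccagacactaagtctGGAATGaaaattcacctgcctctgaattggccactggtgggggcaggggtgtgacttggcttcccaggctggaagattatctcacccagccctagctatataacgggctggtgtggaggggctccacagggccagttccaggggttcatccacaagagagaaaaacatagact
Ankrd1 thus held the letters at 2 places, and 447 of all promoters (1.36%) held them at 2 or more. A match describes the sequence and is not evidence of binding in these cells.

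Counted over the 10 genes, 1 was called in space, Wwtr1, and it was lower, against 5.41% of all 20473 genes in either direction (4.83% lower and 0.581% higher). No member was called higher in space by edgeR in this fit, 0 passed the unadjusted rule, and DESeq2's Wald test also called 0. With the matched pairs as a block edgeR called 1 higher, Cyr61, beside 223 of all genes called higher, and without Ground_R9wt_D5 it called 1, Amotl2, beside 123 of the 21069 genes then tested. In the fit of all 8 libraries the unadjusted rule took Wwtr1 alone (10.9% of all genes), and the groups did not overlap for Wwtr1 alone (14.6% of all genes). In R9del 1 gene was called, Tead2, and it was lower (2.03% of all genes). The unadjusted rule took 2, Tead2 and Ankrd1 (13.8% of all genes), and the groups did not overlap for 1 (14.2% of all genes). At D5 edgeR called 0 of the 10 and 0 of all genes (0%), the unadjusted rule took Ankrd1 alone (3.44% of all genes), and the groups did not overlap for it alone (2.85% of all genes). DESeq2's Wald test called 1 member at D5, Ankrd1, beside 78 higher and 12 lower of all 20473 genes. The median log2 fold change of the 10 genes was 0.26 in space, -0.39 in R9del and 0.39 at D5, against 0.05, -0.05 and -0.03 over all genes. Across the alternatives these medians ranged from -0.05 (without Space_R9wt_D5) to 0.40, from -0.74 to -0.12 and from 0.24 to 0.58. For the interaction of location and genotype edgeR called 0 of the 10 and 0 of all genes (0%), DESeq2's Wald test called 0 of the 10, and Lats1 alone passed an unadjusted p of 0.05 (3.03% of all genes).

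**Figure D2:**
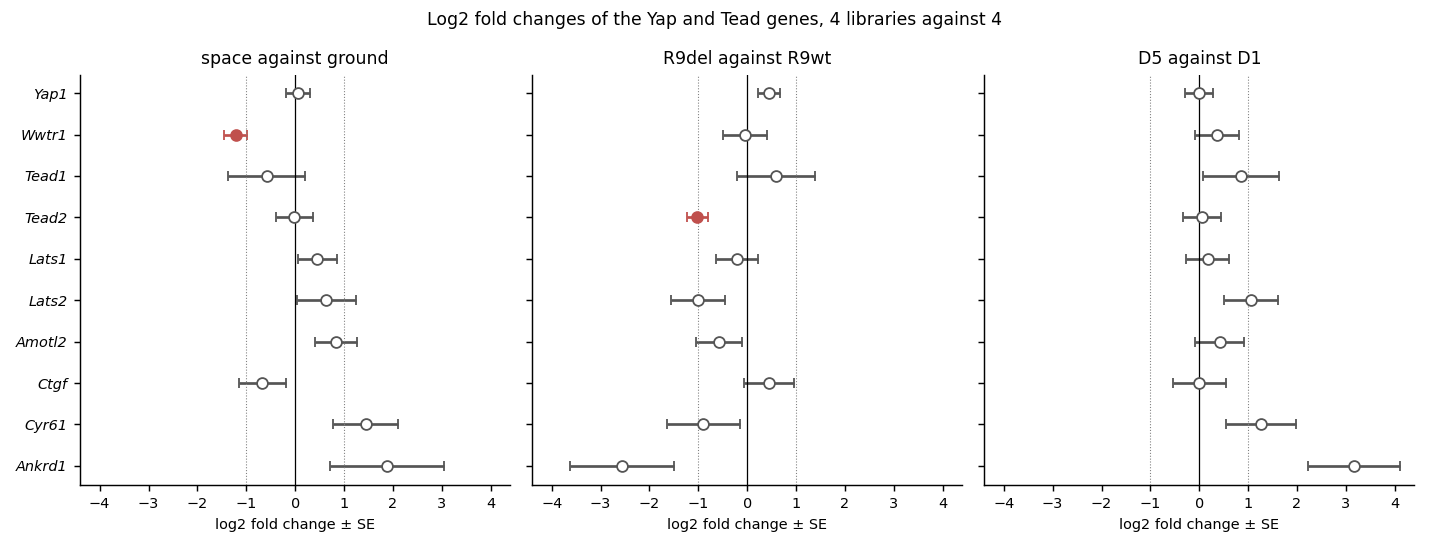
Log2 fold change with its SE for each of the 10 genes in the 3 comparisons of 4 libraries against 4; filled red points were called at an adjusted p under 0.05 and a fold change of at least 2, and dotted lines mark a fold change of 2. Wwtr1 at -1.22 in space and Tead2 at -1.02 in R9del are the filled points, while Ankrd1 at 3.17 at D5 has the largest value with an SE of 0.94.

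Single pairs give the differences between libraries directly, without a test, since each side is 1 library. The background is the 17606 genes with at least 1 CPM in a library. In the space pairs, a fold change of at least 2 was reached by 6 of the 10 genes in R9wt at D1 (34.0% of the background), 6 in R9del at D1 (21.1%), 3 in R9wt at D5 (36.2%) and 5 in R9del at D5 (23.1%). Cyr61 was at least 2-fold higher in all 4 of these pairs, and Amotl2 in both D1 pairs. Wwtr1 passed 2-fold lower in 3 of them and came to a log2 ratio of -0.96 in R9wt at D5. Tead1 gave the widest contrast, with a log2 ratio of 2.31 at D1 and -3.53 at D5, both in R9wt cells.

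Between genotypes, 3 of the 10 genes reached 2-fold on the ground at D1 (22.5% of the background), 5 on the ground at D5 (31.6%), and in space 5 at D1 (34.3%) and 7 at D5 (25.3%). The sign of several genes differed between the durations. At D1 Ctgf was higher in R9del by a log2 ratio of 1.73 on the ground and 1.73 in space, while at D5 it was lower, at -0.25 and -1.41. Cyr61 followed the same order, with 0.44 and 1.36 at D1 and -1.77 and -1.98 at D5, and so did Amotl2, with 0.61 and 0.42 at D1 and -1.68 and -1.29 at D5. The interaction of genotype and duration was not tested. Tead2 was lower in R9del in all 4 of these pairs, from -0.74 to -1.37.

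**Figure D3:**
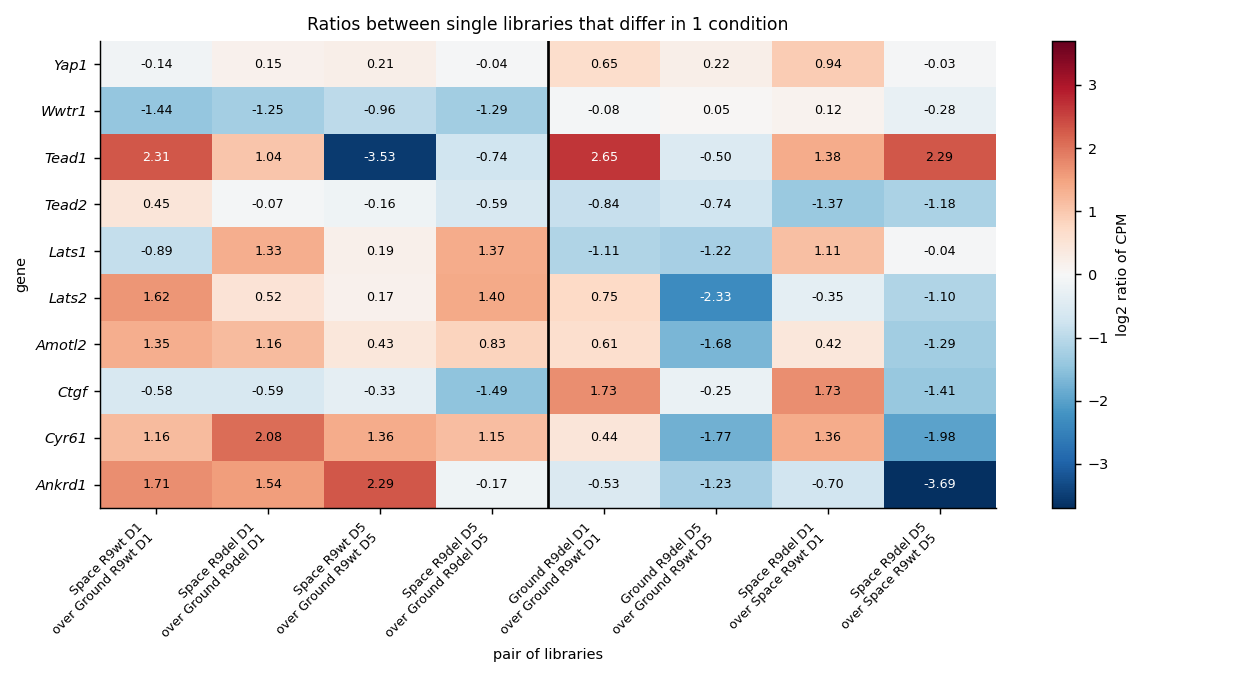
Log2 ratio of CPM between 2 single libraries that differ in 1 condition, for each of the 10 genes (vertical) and each of 8 pairs (horizontal; space over ground left of the line, R9del over R9wt right of it), with red for higher and blue for lower. Cyr61 is red in all 4 space pairs, Wwtr1 is blue in them, and Ankrd1 reaches -3.69 in Space_R9del_D5 over Space_R9wt_D5.

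The rest of the pathway was described with lists written from general knowledge. As background for the counts in every list, the unadjusted rule took 2.91% of all 20473 genes as higher and 7.97% as lower in space. These shares were 6.37% and 7.39% in R9del, and 2.35% and 1.08% at D5. Those called by edgeR were 0.581% and 4.83% in space, 1.18% and 0.850% in R9del, and 0 at D5. Of 39 other Hippo kinases, adaptors and upstream regulators, 38 were tested and edgeR called 0 in each of the 3 comparisons. By the unadjusted rule 1 was higher in space (Frmd6, log2 fold change 1.04), and in R9del 1 was higher (Nf2, 1.33) and 2 lower (Crb3, -1.94, and Inadl, -1.18). At D5 the unadjusted rule took 0, and Taok1 and Fat1, the listed genes with the highest levels, had values of -0.24 and -0.32. DESeq2's Wald test called 0 in space, 1 higher and 1 lower in R9del, and 0 at D5. With the matched pairs as a block edgeR called Frmd6 as higher in space, Nf2 as higher and Crb3 as lower in R9del, and 0 at D5. The medians were 0.15 in space, -0.14 in R9del and 0.14 at D5. Over the alternatives they ranged from 0.07 to 0.25, from -0.22 to -0.08 and from 0.08 to 0.22. The gene Nf2 encodes merlin, which activates the Lats kinases at the membrane, and it measured 37.3 to 102 CPM in R9wt and 155 to 203 CPM in R9del libraries, so these groups did not overlap (adjusted p = 0.055 by edgeR).

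The other genes whose products bind DNA with, or compete at, Tead proteins were Tead3, Tead4 and Vgll1 to Vgll4. Of these 6, 5 were tested, and both edgeR, with and without the block, and DESeq2's Wald test called 0 in the 3 comparisons. The unadjusted rule took Tead3 as lower in R9del (-1.06) and Vgll1 as higher at D5 (4.29, in a range of 1.33 to 9.99 over the alternatives). Vgll1 measured 6.42 CPM in Space_R9wt_D5 and at most 0.357 CPM in the other 7 libraries. Tead4 and Vgll4, the most abundant of the list, had values of -0.35 and 0.11 in space. The medians of the 5 genes were -0.07 in space, -0.33 in R9del and 0.76 at D5, and over the alternatives the first ranged from -0.50 to 0.39 and the second from -0.60 to 0.24.

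Other published Yap and Taz targets numbered 24, all tested. In space edgeR called 1 lower, Gadd45a (log2 fold change -3.05, SE 0.35, adjusted p = 5.02e-04), a stress gene that lay between 39.9 and 57.5 CPM on the ground and between 2.58 and 7.20 CPM in space. It called 0 higher in space, where the unadjusted rule took 2. DESeq2's Wald test called 1 higher and 2 lower there, and edgeR with the block called 0 higher and 3 lower, and 2 higher in R9del. Edn1 (2.01) and Fjx1 (-1.96) followed in size among the 2 higher and 3 lower genes of the unadjusted rule. Over the alternatives these 2 values ranged from 1.58 to 2.37 and from -2.25 to -1.06. In R9del edgeR called 1 higher, Myc (2.99, SE 0.57, adjusted p = 0.0415). This call was lost, at an adjusted p of edgeR of up to 0.122, without any 1 of the libraries other than Ground_R9wt_D1, and the log2 fold change stayed between 2.67 and 3.31. It stood beside Ccnd1 (1.48) and Crim1 (-1.11) by the unadjusted rule. At D5 it called 0, as did DESeq2's Wald test, and the unadjusted rule took 4, all higher, among them Tgfb2 (1.6) and F3 (1.57). The medians of the 24 genes were 0.60 in space, 0.15 in R9del and 0.41 at D5. Over the alternatives they ranged from 0.26 to 0.81, from 0.04 to 0.45 and from 0.36 to 0.88.

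Srf and Mrtf form another actin-sensing transcription system, and the list of it held 12 genes, Srf, Mkl1 and Mkl2 (the genes of Srf and of Mrtf proteins) and their targets. In space edgeR called 1, Vcl, which encodes the adhesion protein vinculin (log2 fold change 1.68, SE 0.24, adjusted p = 0.00228), and called it under each of the 15 alternatives. Vcl lay between 37.1 and 54.3 CPM in space and between 9.91 and 16.2 CPM on the ground. The unadjusted rule added Mkl2 (1.02) in space, took Cnn2 (-1.29) and Tpm1 (-1.23) in R9del, and took 4 genes at D5, led by Acta2 (3.69), Tagln (2.68) and Cnn2 (1.57). In R9del and at D5 edgeR called 0, and DESeq2's Wald test called 0 and 1. With the block edgeR called Mkl2 too, as higher in space and in R9del. The medians were 0.35, -0.15 and 0.36 in the 3 comparisons, but without Space_R9wt_D5 the first was -0.30 and the second 0.19.

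**Figure D4:**
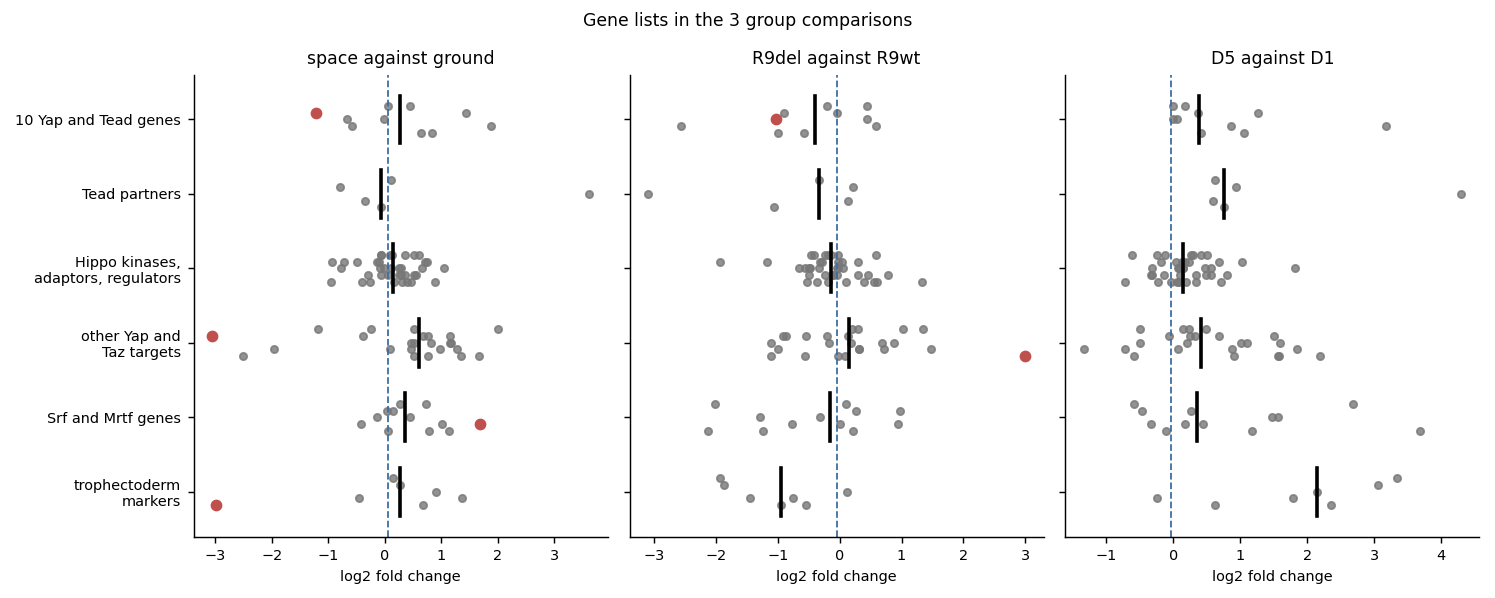
Log2 fold change of each tested gene of the 10 Yap and Tead genes, the related lists and the trophectoderm markers in the 3 comparisons; red points were called at an adjusted p under 0.05 and a fold change of at least 2, the black bar is the median of the list and the dashed line the median of all genes. The medians of the other Yap and Taz targets are 0.60, 0.15 and 0.41, and Gadd45a at -3.05 and Myc at 2.99 are among the red points.

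Since Lats2, Amotl2, Cyr61 and Ankrd1 were highest in Space_R9wt_D5, markers of other early lineages were set beside them. The 8 trophectoderm markers summed to 131 CPM in Ground_R9wt_D1, 213 CPM in Ground_R9del_D1, 1811 CPM in Ground_R9wt_D5 and 709 CPM in Ground_R9del_D5. In space they summed to 165 CPM in Space_R9wt_D1, 315 CPM in Space_R9del_D1, 2808 CPM in Space_R9wt_D5 and 447 CPM in Space_R9del_D5. Their highest sums were thus in the D5 libraries of R9wt cells, as for Lats2, Amotl2 and Ankrd1, and 6 of the 8 markers peaked in Space_R9wt_D5. The most abundant was the keratin Krt18, at 1799 CPM in Space_R9wt_D5. Of the listed transcription factor genes, Cdx2 lay between 0.0685 and 2.86 CPM, with 0.378 CPM in Space_R9wt_D5. Elf5 lay between 0 and 0.428 CPM and Tfap2a between 0.325 and 1.40 CPM, with 0.428 and 1.04 CPM in that library. Hand1 (2.06 to 113 CPM) and Gata3 (2.94 to 86.7 CPM) were highest there. At D5 edgeR called 0 of the 7 tested markers. The unadjusted rule took 4 higher (2.35% of all genes), among them Krt7 (3.34), Krt18 (3.06) and Krt8 (2.36), and DESeq2's Wald test called 3. In space edgeR called Cdx2 as lower (-2.99, adjusted p = 0.0329). This call was lost at an adjusted p of up to 0.0927 without any 1 library other than Ground_R9wt_D1 and Space_R9wt_D5. Counting the main fit, it was made in 9 of 16 fits. In R9del edgeR called 0, the unadjusted rule took 0 and DESeq2's Wald test called 0. The values there were -1.87 for Krt18 and -0.95 for Krt8. Over the alternatives they ranged from -2.30 to -0.88 and from -1.32 to 0.18, so the sign of Krt8 was not stable. The medians of this list were 0.26, -0.95 and 2.14, and the first was -0.71 without Space_R9wt_D5, in a range of -0.71 to 1.24 over the alternatives. Whether cells expressing these markers contributed to the levels of Lats2, Amotl2, Cyr61 and Ankrd1 was not tested.

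**Figure D5:**
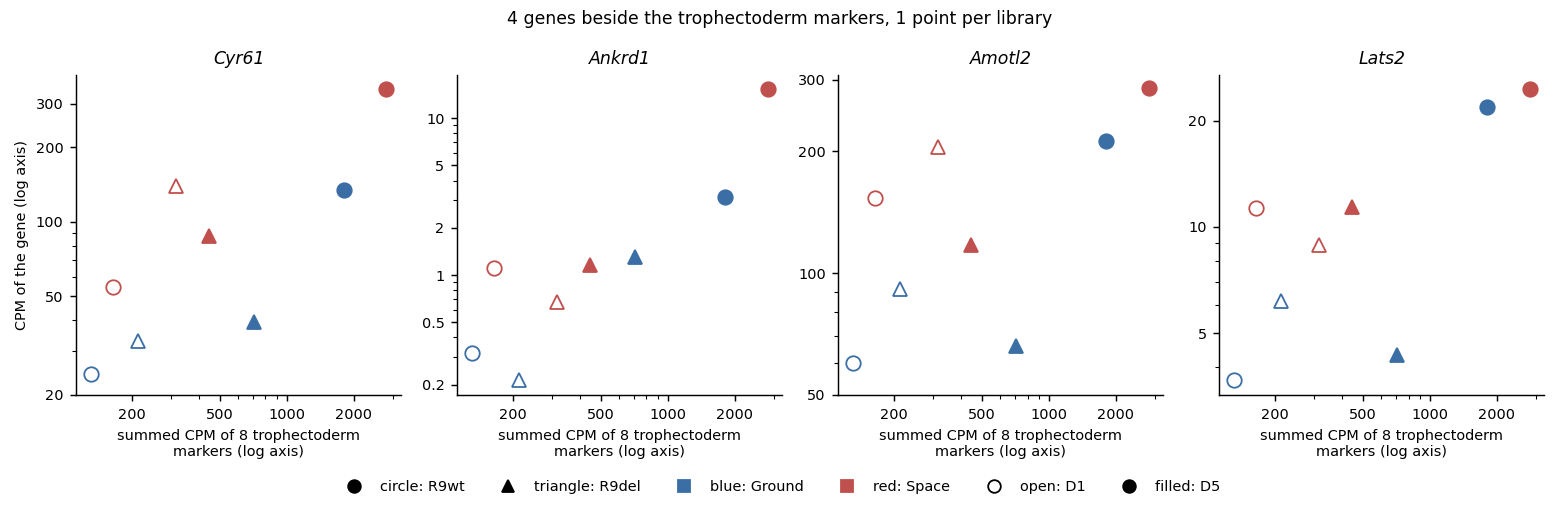
Level of Cyr61, Ankrd1, Amotl2 and Lats2 (vertical, CPM) against the summed level of 8 trophectoderm markers (horizontal, CPM), both on log axes, with 1 point per library; colour marks location, shape marks genotype and filled points are D5. The library at the upper right in all 4 panels is Space_R9wt_D5, with 2808 CPM of markers and 345 CPM of Cyr61.

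Markers of the other lineages had lower sums. The 8 primitive endoderm markers summed to between 22.4 and 91.1 CPM in 6 libraries, to 203 CPM in Space_R9wt_D5 and to 365 CPM in Space_R9del_D5, where 6 of the 8 were highest and Dab2 was the most abundant at 141 CPM. Among them edgeR called Sox17 as lower in space (-3.88, adjusted p = 0.0187, and at most 0.059 without Space_R9del_D1, Space_R9del_D5 or Ground_R9del_D5), and it called 0 higher there, where the unadjusted rule took 3 and DESeq2's Wald test called 1. In R9del and at D5 edgeR called 0, the unadjusted rule took 1 (Sox7) and 5 as higher, and DESeq2's Wald test called 1 in each. With the block edgeR called 2 higher in R9del, Sox7 and Cubn. The medians were 1.29, 0.44 and 1.38, and the second was -0.20 without Space_R9del_D5. Over the alternatives they ranged from 0.72 to 1.63, from -0.20 to 1.45 and from 1.18 to 1.62. The 6 mesendoderm markers summed to at most 33.9 CPM, in Space_R9wt_D5, and edgeR called 0 of them in each comparison. The unadjusted rule took 2 of these as lower in space (Gsc and Mesp1), 3 as lower in R9del and 0 at D5, DESeq2's Wald test called 2, 0 and 0, and edgeR with the block called 1, 1 and 0 (medians -0.77, -1.16 and 0.62, the last -0.64 without Ground_R9wt_D5).

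Genes with a like pattern over the 8 libraries were sought for Ctgf and for Cyr61 among 13046 genes with a mean log2 CPM of at least 1, as a description and with no test. Nearest to Ctgf was Cpeb2, with a Pearson r of 0.957 and a Spearman rho of 0.952 (n = 8), and r was 0.923 without Space_R9wt_D1 and Space_R9del_D5, the libraries farthest from the median of Ctgf. Slc5a5 (r = 0.929), Cacna2d1 (r = 0.910) and Xiap (r = 0.906) were also near, and without those 2 libraries the r of Xiap was 0.694. Nearest to Cyr61 were Serping1 (r = 0.964, rho = 0.952) and Epb4.1l4b (r = 0.964, rho = 0.952), followed by Kremen1 (r = 0.963), Timp3 (r = 0.960) and ENSMUSG00000096980 (r = 0.959), which has no symbol in the annotation. Without Space_R9wt_D5 and Ground_R9wt_D1 these r lay between 0.895 and 0.955.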

How the data were processed

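RNA of 8 mESC libraries was sequenced by the authors, who aligned the reads to mm9 with TopHat2 2.0.9 and deposited raw read counts for 50686 Ensembl genes. The counting program, the annotation and the use of read strand are not stated. Symbols, exons and lengths came from the GENCODE annotation of mm9, which holds 32722 of the identifiers (64.6%, with 97.1% of the counts). In R 4.3.3, edgeR 4.0.16 kept genes with filterByExpr (minimum count 10), scaled the libraries with TMM factors of the kept genes and fitted quasi-likelihood models. Log2 CPM for single pairs used a prior count of 2. DESeq2 1.42.0 gave the Wald test and another scaling. The alternatives are named in the closing section. The procedure was tested on simulated data.

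The named genes are the 10 genes, Rad9a, the 5 nearest in pattern to Ctgf and Cyr61, and from each list up to 3 with the largest fold change past the unadjusted rule, or else its 2 most abundant. Other genes named for their level or overlap, such as Nanog, Elf5, Dab2 and Gm15270, were chosen after their values were seen. Not every gene that the rule gives is named. The members and lists were chosen with earlier results of these data known.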

Additional observations from a re-analysis of the deposited data

Results flagged for a closer look

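In all, 60 groups of 4 libraries were examined over the 10 genes. In 6 of them the gap of a library to the nearest other exceeded Dixon's 95% critical value for the group's range. Chance gives such a gap in about 5% of groups where the 4 values are draws from a single normal distribution. These groups hold unlike libraries, share libraries with each other and were taken in CPM, not on a log scale. The 5% is therefore no reference for the 6 of 60. Lats1 was low in Space_R9wt_D1, at 5.67 CPM against 11.3 to 12.3 CPM in the other space libraries. Lats2 was high in Space_R9wt_D5, at 24.6 CPM against 8.88 to 11.4 CPM in the other space libraries, and high in Ground_R9wt_D5, at 21.9 CPM against 3.67 to 6.17 CPM in the other ground libraries. Ankrd1 was high in Space_R9wt_D5, at 15.3 CPM against 0.672 to 1.16 CPM in the other space libraries and 1.16 to 3.12 CPM in the other D5 libraries. Cyr61 was high in Ground_R9wt_D5, at 135 CPM against 24.4 to 39.4 CPM in the other ground libraries. The groups combine libraries that differ in genotype, location or duration, and 5 of the 6 gaps belong to the D5 libraries of R9wt cells.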

How the results depend on the processing

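The alternatives were scaling by DESeq2's size factors or by library size alone, no filter on low counts, the Wald test of DESeq2, a block for the matched pairs, the other conditions as covariates, each library left out in turn, and, chosen after seeing the data, an offset for gene length and GC, which can be fitted for annotated genes alone (17505 in place of 20473), with a median of all genes in space of 0.21 in place of 0.05. Over 449 refits of the 30 fold changes of the 10 genes, 400 kept their sign and their side of the threshold, 36 changed sign, 9 lost the call and 4 gained an adjusted p under 0.05. For Ankrd1 in space a refit is missing from these, and 13 of its refits kept both and 1 changed sign. Wwtr1 in space kept both everywhere, from -1.37 to -1.15 with a library left out. The number of all genes that pass also changed between refits, and the shares given earlier are mostly those of the main fit. Counts of members under the refits below are thus given without a background of their own. The cause of the changes listed next was not tested.

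In space, Yap1 (0.06) was -0.21 with the offset and -0.12 to 0.18 with a library left out. Tead2 (-0.02) was 0.01 by the Wald test, 0.03 with library size alone, 0.01 with the factors of DESeq2 and -0.35 to 0.18 with a library left out. Amotl2 (0.83) was 0.94 with the block and 0.56 to 1.38 with a library left out, Cyr61 (1.44) was 1.44 with the block and 0.70 to 2.26, and Ankrd1 (1.88) was -0.34 to 2.86. Members called higher (0) were 1 with the block and 0 to 1 with a library left out. By the unadjusted rule (0) they were 1 with library size alone, the Wald test or the offset, 2 with the block or the covariates and 0 to 3 with a library left out.

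In R9del, Wwtr1 (-0.04) was 0.03 with library size alone and -0.37 to 0.21 with a library left out. Tead2 (-1.02) was -0.97 with library size alone, -1.04 without the filter, where more genes are tested (adjusted p = 0.0569 and 0.0691 by edgeR, in a range of 0.00114 to 0.153), and -1.18 to -0.95 with a library left out. Cyr61 (-0.90) was -1.40 to 0.08. Members called lower (1) were 0 with library size alone or without the filter and 0 to 1 with a library left out. By the unadjusted rule members higher (0) were 1 with the block and 0 to 1 with a library left out, and members lower (2) were 1 with library size alone and 0 to 3.

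At D5, Yap1 (-0.01) was 0.00 without the filter, 0.04 with the block or the covariates and -0.14 to 0.17 with a library left out. Tead2 (0.05) was 0.00 with the offset and -0.15 to 0.37, Lats1 (0.17) was -0.01 to 0.41, Ctgf (0.00) was -0.02 with library size alone, -0.10 with the offset and -0.25 to 0.50, and Ankrd1 (3.17) was 3.17 by the Wald test and 1.69 to 3.7. Members called higher (0) were 1 by the Wald test, and by the unadjusted rule (1) they were 1 to 3 with a library left out.

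The limits are those of the design. With 1 library per condition, the spread between cultures is not measured, and the 4 libraries of a group differ in the other conditions. The block leaves few degrees of freedom, and its pairs come from matched labels, not from shared cultures. Ankrd1 rests on 14 to 931 counts, so its ratios at D1 are the least precise. How reads in the overlapping exons of Tead1, Ctgf and Lats2 were assigned is not known. Transcript levels do not measure the phosphorylation or the location of Yap and Taz.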
